A study of Arabidopsis thaliana with 12 samples.

Results

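The subject here is a set of 9 gibberellin oxidase genes of Arabidopsis thaliana, chosen by gene name and not by level: GA20OX1 (AT4G25420), GA20OX2 (AT5G51810), GA20OX3 (AT5G07200), GA3OX1 (AT1G15550), GA3OX2 (AT1G80340), GA2OX1 (AT1G78440), GA2OX2 (AT1G30040), GA2OX6 (AT1G02400) and GA2OX8 (AT4G21200). All 9 were found among the 33602 loci of the deposited tables. RNA-seq was carried out on whole seedlings aged 10 days, with 3 libraries in each of 4 groups. Normal light (130 µmol) was given to 1 group of wild type Col-0 and 1 group of the atrx-2 mutant, and low light (30 µmol) to another group of each genotype. All were raised in a greenhouse with long days at the same temperature. The labels name the mutant by its allele alone and give no rescue line. Replicates are numbered, but nothing in the labels places them in separate sowings, so a p-value covers no more than library-to-library spread, which may be technical.

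Gibberellins are diterpenoid hormones that promote germination, stem elongation and flowering. The GA20OX and GA3OX enzymes carry out the last steps that make the active hormone, and the GA2OX enzymes inactivate it or its precursors. All are iron-dependent dioxygenases that use 2-oxoglutarate. Active hormone binds the GID1 receptors and leads to the breakdown of the DELLA repressors. In Arabidopsis, active hormone lowers transcripts of several GA20OX and GA3OX genes and raises those of several GA2OX genes, a known feedback. ATRX, the gene mutated here, encodes a chromatin remodeller that acts with the histone variant H3.3.

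Gene models came from the TAIR10.1 annotation. Between translated coding sequences, identity over a global alignment was 61.7% to 74.1% for the 3 GA20OX pairs, 73.2% for the GA3OX pair, 24.7% to 53.6% for the 6 GA2OX pairs and 25.4% to 31.4% for the 26 pairs between subfamilies. The GA2OX range overlaps that between subfamilies only through the pairs with GA2OX8, at 24.7% to 26.3%. The pairs among GA2OX1, GA2OX2 and GA2OX6 had 42.6% to 53.6%. Each member had 2 or 3 exons, and no other annotated locus overlapped any of them. The next lines give 54 coding bases around the histidine and aspartate codons (capitals) of the iron-binding His-X-Asp motif, for the 3 pairs of relatives whose transcript levels are compared. They are read from the coding strand of TAIR10.1, each within 1 exon.
GA20OX1: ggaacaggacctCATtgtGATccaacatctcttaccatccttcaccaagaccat
GA20OX2: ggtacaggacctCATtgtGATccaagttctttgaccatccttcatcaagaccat
GA3OX1: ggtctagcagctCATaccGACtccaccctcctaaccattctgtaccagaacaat
GA3OX2: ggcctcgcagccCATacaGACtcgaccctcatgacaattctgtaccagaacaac
GA2OX1: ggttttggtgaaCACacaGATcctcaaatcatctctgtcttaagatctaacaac
GA2OX2: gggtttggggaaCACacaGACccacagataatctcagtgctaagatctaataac
These lie at chr4:12991439-12991492 (minus strand), chr5:21055830-21055883 (minus), chr1:5344911-5344964 (minus), chr1:30201025-30201078 (minus), chr1:29512220-29512273 (minus) and chr1:10538581-10538634 (plus) in that order. The search pattern was longer than His-X-Asp, with a further histidine and an arginine within set distances after it. It had a match in 8 of the 9 members and none in GA2OX6. Which part was missing in GA2OX6 was not tested, nor was His-X-Asp searched for alone.

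Totals were between 13733302 and 23899191 estimated counts per library. The targeted gene ATRX (AT1G08600) had 733 to 905 counts in wild type and 16 to 20 in the mutant under normal light, and 537 to 681 against 6 to 15 with low light, as the labels state. Low light went with a larger share of 18S ribosomal RNA, 9.77% to 16.7% of counts against 3.71% to 8.64%, and of organelle genes, 5.18% to 9.44% against 2.48% to 3.79%. Root markers were detected in every library, with a summed TPM (a level per length, scaled to a fixed library total) of 84.6 to 171.0 over 12 genes, as were 4 green-shoot markers at 12300.0 to 17400.0. The 4 seed storage and embryo markers stayed at or below 0.399 TPM in sum. The light levels were compared on counts scaled by TMM, and tests are edgeR quasi-likelihood F tests over the 20783 genes past a low-count filter, two-sided, with Benjamini-Hochberg adjustment over all of them. A gene is said to rise or fall where its adjusted p was under 0.05. CPM values, counts scaled to a fixed library size, use the TMM factors, and each ± is the SD of 3 libraries unless it is named as a standard error. In whole seedlings, fewer cells of a type and less RNA per cell cannot be told apart.

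Per length, the family was dominated by GA3OX1, the main GA3OX of vegetative growth. Its deposited TPM was 9.20, 9.01 and 10.4 in wild type under normal light, with 6.55, 8.41 and 8.57 in the mutant. With low light it was 5.39, 4.68 and 3.85 in wild type, with 5.55, 4.12 and 5.70 in the mutant. It ranked first of the 9 in 12 of 12 libraries and held 35.5% to 51.3% of their summed TPM. GA2OX6 (mean TPM 2.87), an inactivating enzyme, ranked second in 12 of 12 libraries. GA20OX2 (1.62), GA20OX1 (1.58) and GA2OX2 (1.43) formed a middle tier. GA20OX2 was above GA20OX1 in 6 of 12 libraries, those of low light, and below it in those of normal light. Their order per length thus went with the light level. GA20OX1 was above GA2OX2 in 9 of 12, so these 2 genes were not separated beyond their spread. GA3OX2 (0.451), GA2OX1 (0.429) and GA2OX8 (0.405) formed a low tier whose members also changed places between libraries. The tiers, set by the means, crossed in low-light replicate 1 of wild type. There GA20OX1 (0.65 TPM) lay below GA2OX1 (0.866) and GA3OX2 (0.751). GA20OX3 had the lowest mean, 0.132 TPM. The other 7 GA20OX, GA3OX and GA2OX genes on a list beside the members (GA20OX4, GA20OX5, GA3OX3, GA3OX4, GA2OX3, GA2OX4 and GA2OX7) did not pass the filter, and GA3OX3 and GA3OX4 had no count in any library.

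**Figure D1:**
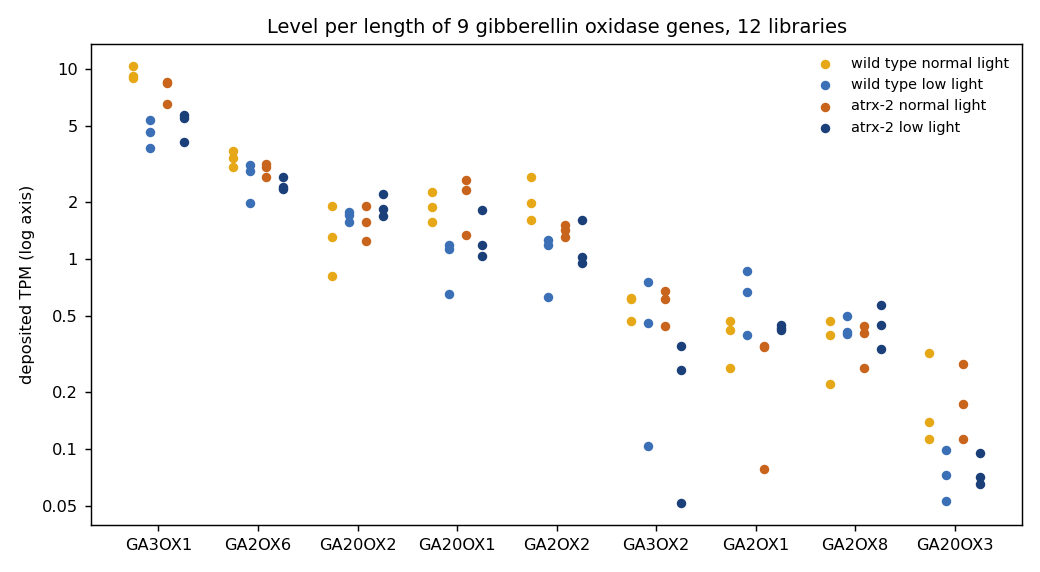
Deposited TPM (log axis) of the 9 genes in order of their mean over 12 libraries, 1 point per library, coloured by group. GA3OX1 is the highest gene and GA2OX6 the second in each library, and the low tier of GA3OX2, GA2OX1 and GA2OX8 overlaps.

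GA3OX1 was lower under low light in both genotypes. In wild type the CPM was 12.6, 13.6 and 13.3 under normal light and 8.61, 7.12 and 6.79 with low light. In atrx-2 it was 8.99, 11.5 and 11.5 under normal light and 7.58, 6.41 and 8.64 under low light. All 6 low-light libraries lay below all 6 normal-light libraries, and the highest low-light value (8.64) was close to the lowest normal-light one (8.99), both from atrx-2. How many of all genes separate by light in this way was not counted, for GA3OX1 or for the genes below. Such separations thus add nothing to the tests. The log2 fold change, low over normal, was -0.80 ± 0.14 (SE) in wild type (1.74-fold lower, edgeR adjusted p = 0.000378) and -0.49 ± 0.13 (SE) in atrx-2 (1.41-fold lower, edgeR adjusted p = 0.0117). The wild-type call held in all 19 alternatives (edgeR or DESeq2 adjusted p 1.11e-05 to 0.00308). In atrx-2 it was lost in 1 of 19, without low-light replicate 2 (log2 -0.41, edgeR adjusted p = 0.0501). The difference between the genotypes in this light effect was 0.31 ± 0.19 (SE, 95% interval -0.10 to 0.72, edgeR adjusted p = 0.978), so the size was not shown to differ. With organelle and ribosomal RNA loci left out of the fit, the light effect was -0.79 and -0.49.

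Of the 7 members past the filter, 2 fell and none rose in wild type under low light, and 1 fell and none rose in atrx-2. Over all genes tested, 34.2% changed in wild type (17.6% lower, 16.6% higher) and 33.1% in atrx-2 (16.9% lower, 16.1% higher), so over both directions neither share of members was above the background. The wild-type count was 1 without low-light replicate 3 of wild type. The atrx-2 count was 0 without its low-light replicate 2 and 2 without its normal-light replicate 1. The median log2 fold change of the 7 was -0.10 in wild type, with -0.15 in the mutant, against -0.005 and 0.007 over all genes tested. The low-count filter removed GA20OX3 and GA2OX8.

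The second gene to fall in wild type was GA2OX2, which inactivates active gibberellin. Its CPM was 3.11, 2.78 and 3.92 under normal light and 2.29, 2.04 and 1.27 under low light in wild type, with no overlap. In atrx-2 the values were 2.03, 2.23 and 2.30 under normal light and 2.51, 1.69 and 1.76 with low light, which overlap. The log2 fold change was -0.78 ± 0.23 (SE) in wild type (1.72-fold lower, edgeR adjusted p = 0.0181) and -0.14 ± 0.24 (SE) in atrx-2 (edgeR adjusted p = 0.697). The genotype by light term was 0.65 ± 0.33 (SE, 95% interval -0.07 to 1.36, edgeR adjusted p = 0.978), so a difference between the genotypes was not shown. The wild-type call was lost without normal-light replicate 3 (log2 -0.63, edgeR adjusted p = 0.0879) and without low-light replicate 3 (log2 -0.60, edgeR adjusted p = 0.0747), the latter being the shallowest library with the highest 18S share, 16.7%.

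GA20OX1 and GA20OX2, which act one step before GA3OX1, had light estimates of opposite sign. GA20OX1, the gene of the GA5 locus needed for full stem length, had a CPM of 2.19, 2.90 and 2.95 in wild type under normal light and 1.06, 1.85 and 2.04 under low light. In atrx-2 it had 1.88, 3.26 and 3.55 under normal light and 2.51, 1.89 and 1.61 under low light. The wild-type groups did not overlap and the atrx-2 groups did. Its log2 fold change was -0.74 ± 0.30 (SE) in wild type (edgeR adjusted p = 0.0692) and -0.54 ± 0.28 (SE) in atrx-2 (edgeR adjusted p = 0.161), short of the threshold in each genotype. Without normal-light replicate 1 of atrx-2 it passed in both genotypes (edgeR adjusted p = 0.0359 and 0.0384).

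GA20OX2 had a CPM of 2.04, 1.39 and 2.76 in wild type under normal light and 3.19, 2.70 and 3.39 under low light. In atrx-2 it had 1.93, 2.43 and 2.90 under normal light and 3.42, 3.24 and 2.90 under low light. The low-light libraries were mostly the higher ones, with an overlap in each genotype. Its log2 fold change was 0.55 ± 0.24 (SE) in wild type (edgeR adjusted p = 0.0851) and 0.39 ± 0.23 (SE) in atrx-2 (edgeR adjusted p = 0.215). It passed in wild type when normal-light replicate 3 of wild type was left out (log2 0.84, edgeR adjusted p = 0.0212). Library scaling cancels in a ratio within a library, but the deposited lengths do not. The TPM ratio of GA20OX1 to GA20OX2 was 1.19, 2.30 and 1.19 in wild type under normal light, with 1.08, 1.49 and 1.36 in the mutant. Under low light the ratio was 0.369, 0.757 and 0.665 in wild type, with 0.813, 0.646 and 0.618 in the mutant. Per length, GA20OX1 was thus the higher of the pair in all 6 normal-light libraries and the lower in all 6 low-light libraries. On counts, normal-light replicate 1 of atrx-2 went the other way, with 37 for GA20OX1 and 38 for GA20OX2. How many pairs of genes split by light in this way was not counted.

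GA2OX1, another gene for an inactivating enzyme, had few counts, 2 to 24 per library. Its CPM was 0.560, 0.390 and 0.582 in wild type under normal light, with 0.457, 0.104 and 0.450 in the mutant. Under low light it was 1.34, 0.988 and 0.679 in wild type, with 0.570, 0.675 and 0.617 in the mutant. Within each genotype every low-light library was above every normal-light library. The log2 fold change was 0.98 ± 0.39 (SE) in wild type (edgeR adjusted p = 0.0676) and 0.86 ± 0.45 (SE) in atrx-2 (edgeR adjusted p = 0.165). It passed in wild type when normal-light replicate 2 of atrx-2 was left out (log2 0.98, edgeR adjusted p = 0.0361). The main estimate of GA2OX1 in wild type, short of the threshold, was opposite in sign to that of GA2OX2.

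The mean of both light effects from the same fit, a contrast added after the separate results were seen, used 6 libraries on each side. In it GA20OX2 (log2 0.47 ± 0.17 SE, edgeR adjusted p = 0.0281) and GA2OX1 (0.92 ± 0.30 SE, edgeR adjusted p = 0.0197) rose under low light. GA20OX1 (-0.64 ± 0.20 SE, edgeR adjusted p = 0.0182), GA3OX1 (-0.65 ± 0.10 SE, edgeR adjusted p = 5.95e-05) and GA2OX2 (-0.46 ± 0.17 SE, edgeR adjusted p = 0.0333) fell. These 5 of 7 members stand beside 48.3% of all genes tested, 24.3% lower and 24.0% higher. The calls of GA20OX2 and GA2OX2 were each lost in 7 of 18 alternatives (highest adjusted p 0.0646 and 0.0912), and those of GA20OX1 and GA2OX1 in 1 each, without wild-type low-light replicate 1 (edgeR adjusted p = 0.0545 and 0.0629). GA3OX1 kept its call in all 18. The count of 5 became 2 when low-light replicate 1 of wild type was left out. It became 3 when low-light replicate 3 of wild type or low-light replicate 2 of atrx-2 was.

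**Figure D2:**
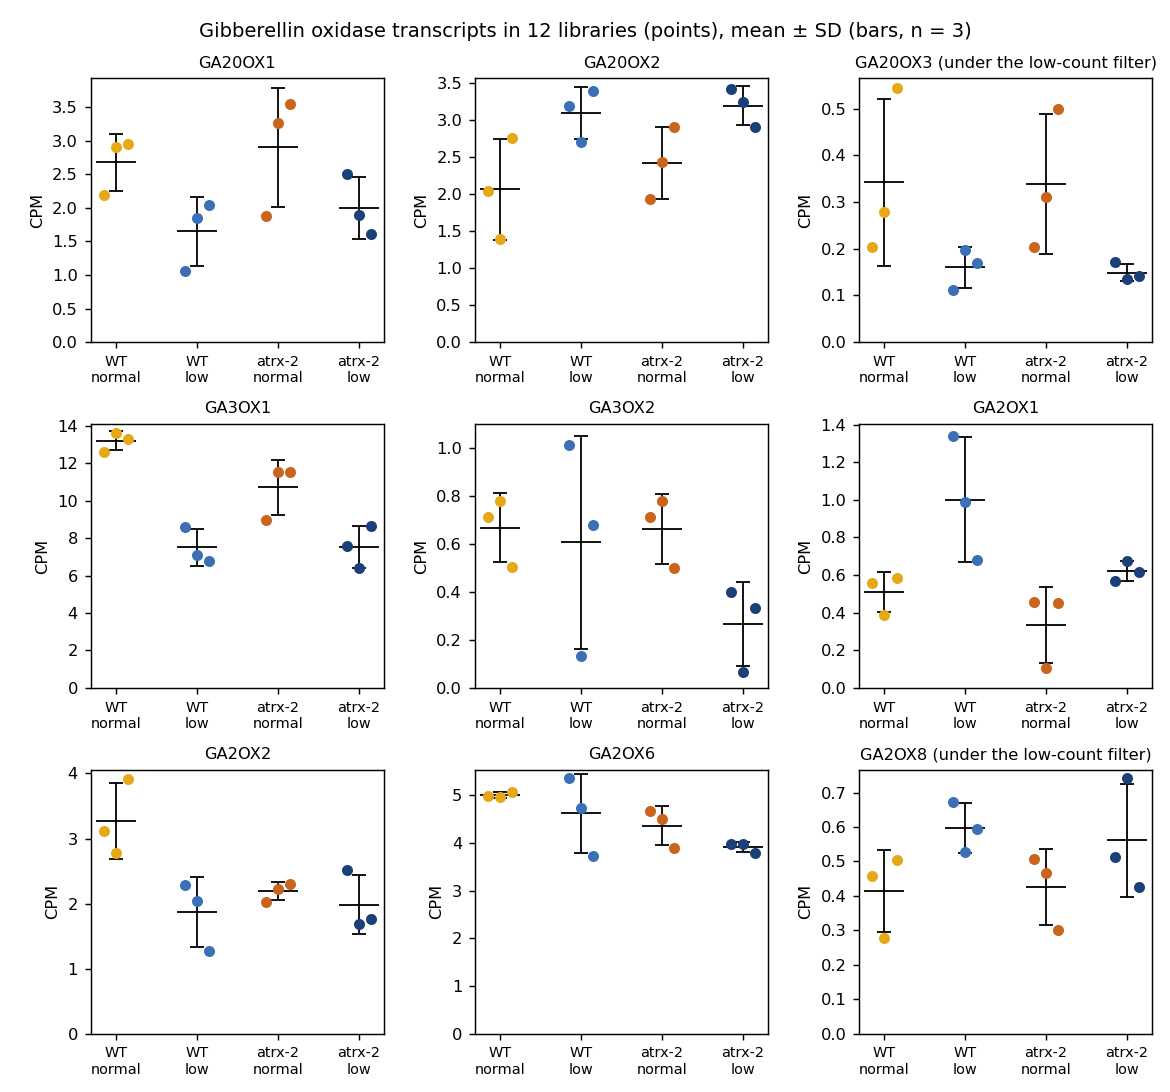
TMM-scaled CPM of each of the 9 genes in the 12 libraries (points), with the mean and SD of 3 libraries (bars), by genotype and light. GA3OX1 is lower in all 6 low-light libraries, and GA2OX6 stays between 3.73 and 5.37 CPM. The light estimates of GA20OX1 and GA20OX2 have opposite signs, short of the threshold within each genotype.

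The abundant inactivating gene GA2OX6 varied little. Its CPM was 4.99, 4.96 and 5.08 in wild type under normal light, with 4.67, 4.50 and 3.90 in the mutant. Under low light it was 5.37, 4.74 and 3.73 in wild type, with 3.99, 3.98 and 3.8 in the mutant. The light groups overlapped in each genotype. Its log2 fold change with light had a 95% interval of -0.42 to 0.21 in wild type and -0.47 to 0.16 in atrx-2 (edgeR adjusted p = 0.622 and 0.468), which bounds any change at these depths without showing that there was none.

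GA3OX2, best known for its part in germination, had 10 to 15 counts per library under normal light. Under low light it had 18, 2 and 8 counts in wild type, with 7, 1 and 7 in the mutant. Its log2 fold change was -0.08 ± 0.52 (SE) in wild type and -1.23 ± 0.58 (SE) in atrx-2 (edgeR adjusted p = 0.919 and 0.121). At these counts the 95% intervals ran from -1.19 to 1.03 and from -2.47 to 0.01, so even a 2-fold change in either direction could not be told from none in wild type.

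The pair of genes under the filter had no main test. GA20OX3 had 4, 5 and 14 counts in wild type under normal light, with 4, 6 and 10 in the mutant. Under low light it had 2, 3 and 2 counts, with 3, 2 and 3 in the mutant. On the CPM scale all 6 low-light libraries (0.112 to 0.198) lay below all 6 normal-light libraries (0.203 to 0.543), at a depth where single reads matter. With no filter its log2 fold change was -1.15 in wild type and -1.14 in the mutant (edgeR adjusted p = 0.207 in each), short of the threshold. In the averaged contrast, added after the separate results were seen, it was -1.14 (edgeR adjusted p = 0.048). With DESeq2 the averaged value was -1.16 (adjusted p = 0.122). GA2OX8, known to inactivate gibberellin precursors with the longer carbon skeleton, had 5 to 13 counts in each library. Its CPM in wild type was 0.458, 0.278 and 0.504 with normal light and 0.671, 0.527 and 0.594 with low light, which do not overlap. In the mutant it was 0.508, 0.466 and 0.300 against 0.513, 0.742 and 0.427, which do. With no filter the log2 fold change of GA2OX8 was 0.50 in wild type and 0.37 in the mutant (edgeR adjusted p = 0.449 and 0.573).

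**Figure D3:**
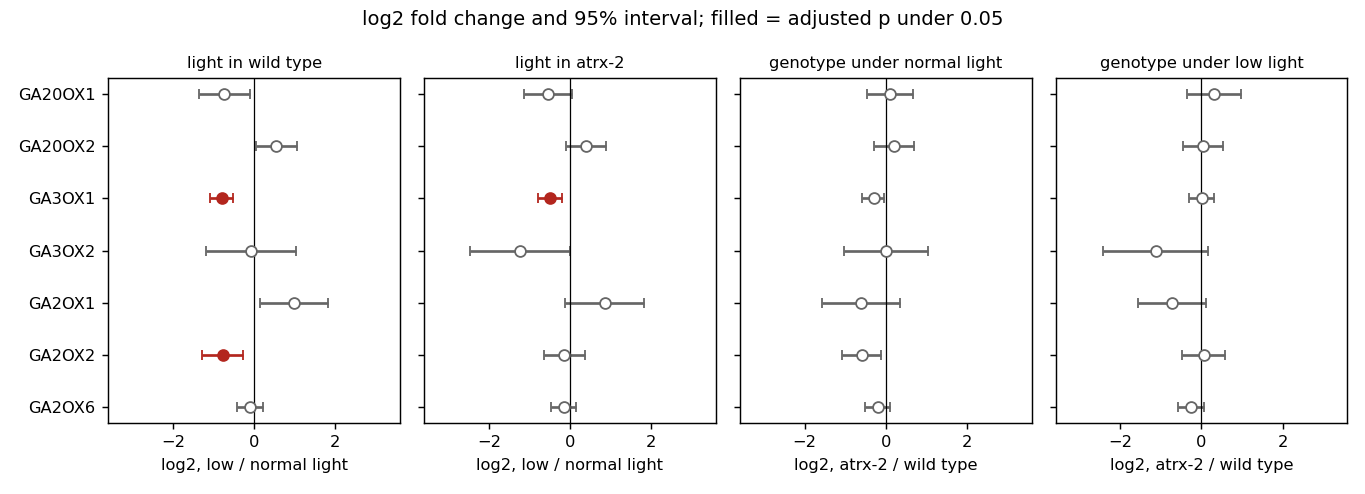
log2 fold change (points) and 95% interval (bars) of the 7 tested genes for light within each genotype (low over normal) and genotype within each light level (atrx-2 over wild type), with filled points for adjusted p under 0.05. The filled points are GA3OX1 in both light comparisons and GA2OX2 for light in wild type.

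By genotype, 0 of the 7 tested members changed under normal light, under low light, averaged over light or in the interaction. All genes gave 0.0674%, 0.0722%, 0.308% and 0.00481% called in the same comparisons by edgeR, which are 14, 15, 64 and 1 genes. With a library left out these counts were 5 to 19, 7 to 21, 31 to 84 and 0 to 2. At an unadjusted p under 0.05 there were 2 of 7 members under normal light, 0 under low light, 2 averaged and 0 in the interaction. Of all 20783 genes tested, 1791, 1359, 2113 and 915 had such an unadjusted p, in the same order. The DESeq2 Wald test also called 0 members in each. The 2 under normal light were GA2OX2, with a log2 fold change of -0.59 ± 0.22 (SE, edgeR adjusted p = 0.514), and GA3OX1, with -0.30 ± 0.13 (SE, edgeR adjusted p = 0.547). For these genes and for GA2OX6, every atrx-2 library under normal light lay below every wild-type library, as the CPM values above show. How many of all genes separate in this way was not counted, so this adds nothing to the tests. None of these differences passed, that of GA2OX6 included (edgeR adjusted p = 0.709). Under low light the GA3OX1 difference was 0.01 (95% interval -0.30 to 0.31) and that of GA2OX2 was 0.06 (-0.48 to 0.59). GA2OX1 had a log2 fold change of -0.60 ± 0.45 (SE) under normal light and -0.73 ± 0.39 under low light, neither past the test (edgeR adjusted p = 0.727 and 0.823). Averaged over light its difference was -0.67 ± 0.30 (SE, edgeR adjusted p = 0.48), and that of GA2OX6 was -0.23 ± 0.10 (SE, edgeR adjusted p = 0.487). The 95% intervals of the averaged difference were narrowest for GA3OX1 (-0.35 to 0.06) and widest for GA3OX2 (-1.40 to 0.28).

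Summed per length, the 9 members gave 19.7 ± 2.63 TPM in wild type under normal light, with 17.3 ± 1.89 in the mutant, and 12.6 ± 1.89 and 13.2 ± 1.83 in the same order with low light. The GA3OX pair made up most of that gap, with 10.1 ± 0.666 and 8.43 ± 1.09 TPM under normal light against 5.08 ± 0.953 and 5.34 ± 1.02 under low light. The GA20OX genes summed to 3.43 ± 0.916 and 3.84 ± 1.06 against 2.74 ± 0.238 and 3.33 ± 0.684, and the GA2OX genes to 6.21 ± 1.10 and 5.0 ± 0.220 against 4.76 ± 1.22 and 4.55 ± 0.580, each differing by about its spread or little more. TPM is lowered for every other gene where ribosomal and organelle RNA take a larger share, so these sums are not scaled for the light difference in those shares. A ratio within a library is free of that. GA20OX and GA3OX together over GA2OX gave 2.07, 2.42 and 2.09 in wild type under normal light, with 1.88, 2.65 and 2.86 in the mutant. With low light it gave 1.5, 1.48 and 2.12, with 1.92, 1.67 and 2.14 in the mutant, and the light levels overlapped in each genotype. The GA3OX1 share of the 9 was 48.5% ± 2.71 in wild type under normal light, with 45.3% ± 1.69 in the mutant, and 36.8% ± 0.665 and 38.8% ± 4.83 in the same order with low light.

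The same light comparisons were read for the other genes of the pathway. Among 5 early synthesis genes, 2 rose in both genotypes under low light and none fell, beside 34.2% and 33.1% of all genes changed and 16.6% and 16.1% higher. Over both directions a count of 2 of 5 is close to that background. It is above the share of genes that were higher, but rests on 2 genes and was not tested. GA2, for ent-kaurene synthase, had a log2 fold change of 0.80 ± 0.17 (SE) in wild type and 0.76 ± 0.17 in atrx-2 (edgeR adjusted p = 0.00263 and 0.00337). GA3, for ent-kaurene oxidase, had 0.63 ± 0.09 (SE) and 0.65 ± 0.09 (edgeR adjusted p = 8.51e-05 and 5.91e-05). The list's median was 0.06 and 0.05. Of 4 other inactivation genes 2 were tested, and 1 rose in wild type and 0 in atrx-2, beside the same 16.6% and 16.1% higher. It was CYP714A2, a cytochrome P450 (1.17 ± 0.40 SE in wild type, edgeR adjusted p = 0.0338), with 1.03 ± 0.42 in atrx-2 (edgeR adjusted p = 0.078).

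Among 5 perception genes, the receptor GID1C rose in both genotypes (0.47 ± 0.12 and 0.34 ± 0.12 SE, edgeR adjusted p = 0.00648 and 0.0343) and none fell. A count of 1 of 5 is close to the 16.6% and 16.1% of all genes tested that were higher. Of the 5 DELLA repressor genes, 3 fell in both genotypes and 1 rose in wild type alone. Of all genes tested, 17.6% and 16.9% were lower and 16.6% and 16.1% higher. RGL2 fell most, from 5.13 ± 0.0429 to 1.81 ± 0.212 CPM in wild type and from 5.38 ± 0.606 to 2.57 ± 0.439 in atrx-2 (log2 -1.51 ± 0.17 and -1.06 ± 0.16 SE, edgeR adjusted p = 1.29e-05 and 0.000153). RGL1 had log2 fold changes of -0.78 ± 0.17 and -0.82 ± 0.17 (SE, edgeR adjusted p = 0.0031 and 0.0018). The third was RGA, named after its values were seen, with -0.23 and -0.38 (edgeR adjusted p = 0.0441 and 0.00255). GAI rose in wild type (0.30 ± 0.09 SE, edgeR adjusted p = 0.0148) and had 0.20 ± 0.09 in atrx-2 (edgeR adjusted p = 0.0955). The median of the 5 was -0.55 and -0.39.

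Of 14 GASA genes, a family of small cysteine-rich peptides of which several respond to gibberellin, 8 were tested, and 5 fell and 1 rose in each genotype (median -0.72 and -0.42). Of all genes tested 17.6% and 16.9% were lower and 16.6% and 16.1% higher. GASA1 fell from 305.0 ± 17.7 to 157.0 ± 22.7 CPM in wild type (log2 -0.95 ± 0.12 SE) and from 290.0 ± 52.0 to 168.0 ± 12.2 in atrx-2 (-0.78 ± 0.12; edgeR adjusted p = 4e-05 and 0.000226). The locus AT5G59845 fell too, with log2 fold changes of -1.26 ± 0.28 and -1.13 ± 0.27 (SE, edgeR adjusted p = 0.00293 and 0.00532). GASA5 fell more than GASA1 in atrx-2, with -0.94 ± 0.24 (SE, edgeR adjusted p = 0.00804). In wild type GASA5 had -0.88 ± 0.23 (SE, edgeR adjusted p = 0.00936). GASA14 went the other way, from 19.7 ± 2.45 to 42.9 ± 3.94 CPM in wild type and from 17.3 ± 3.66 to 42.0 ± 7.62 in atrx-2 (1.13 ± 0.15 and 1.28 ± 0.15 SE, edgeR adjusted p = 4.86e-05 and 1.61e-05). Among 9 transcription factors and cofactors known to act on gibberellin oxidase genes, 3 fell in wild type and 1 in atrx-2, beside 17.6% and 16.9% of all genes tested lower and 34.2% and 33.1% changed in either direction. Over both directions the list was thus not above the background. HY5, a light-signalling bZIP factor, fell in both (-1.23 ± 0.17 and -1.06 ± 0.16 SE, edgeR adjusted p = 5.62e-05 and 0.000186), and AGL15, a MADS-box factor, in wild type (-0.84 ± 0.29 SE, edgeR adjusted p = 0.0346; -0.07 ± 0.28 in atrx-2). The third was SCL3, a GRAS protein, at -0.30 (edgeR adjusted p = 0.0329), named after its values were seen. By genotype edgeR called 0 genes of any of these lists under either light level, averaged or in the interaction. At an unadjusted p under 0.05 there were 0 to 2 per list and comparison, beside 915 to 2113 of all 20783 genes tested. DESeq2 called 1 GASA locus, AT1G22690, under normal light and averaged, and 0 in the other lists and comparisons.

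**Figure D4:**
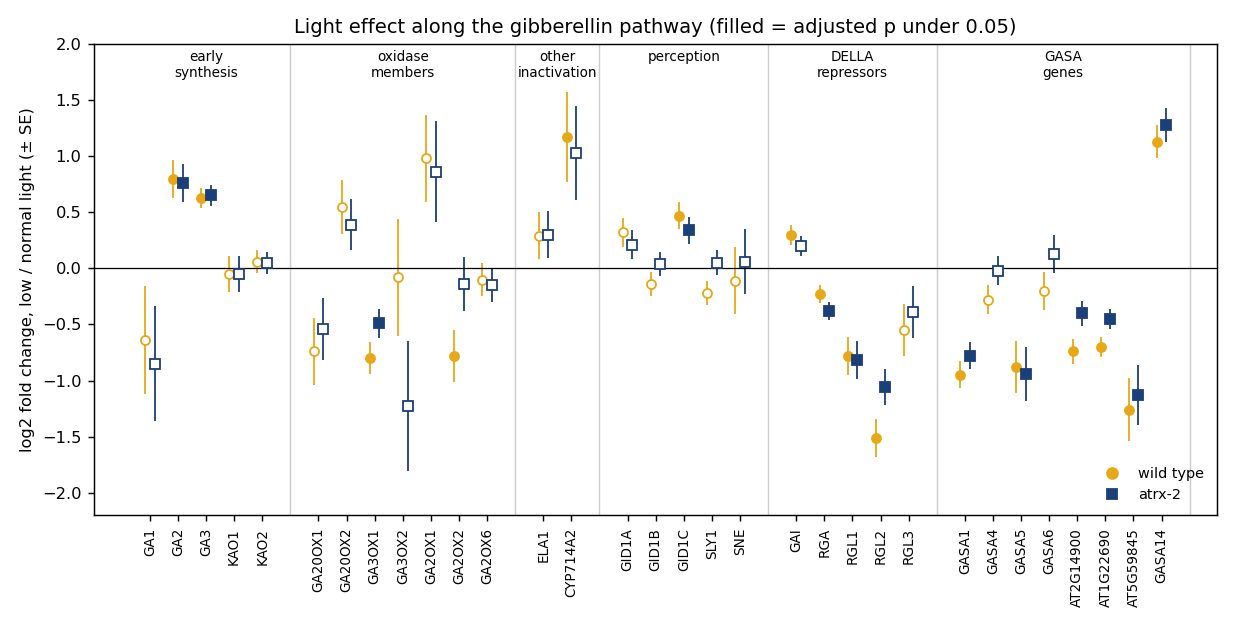
log2 fold change, low over normal light, with its standard error for each tested gene of the early synthesis, oxidase, other inactivation, perception, DELLA and GASA lists, in wild type (circles) and atrx-2 (squares), filled for adjusted p under 0.05. GA2, GA3, GID1C and GASA14 lie above 0 and RGL1, RGL2, GASA1 and GASA5 below 0 in both genotypes.

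Some organ markers also passed the test for light. Among 12 root markers, 3 rose in wild type (PLT2, IRT1 and NRT2.1) and 2 in atrx-2 (PLT1 and PLT2), with none lower and a list median of 0.16 and 0.17. Over all genes tested, 16.6% and 16.1% were higher, so these counts are near the background. Of 4 green-shoot markers, CA1 and GAPA fell and LHCB3 rose in both genotypes, beside 34.2% and 33.1% of all genes tested changed in either direction. Of 4 flower markers 1 was tested, PI, which fell in both (log2 -1.58 and -1.57). Their part in the oxidase values was not tested.

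The level patterns most like those of the member with the highest mean TPM in each subfamily were found by Pearson's r of log2(CPM + 0.5) over the 12 libraries, as a description, since the libraries share the light difference. GA3OX1 was closest to ABCG25 (r = 0.96), UXS6 (0.96) and ZFP7 (0.95) among 14854 genes of at least 5 CPM. GA20OX2, whose mean TPM (1.62) was near that of GA20OX1 (1.58), was closest to AT4G20320 (0.95), AT5G64090 (0.93) and AT5G38212 (0.93). GA2OX6 was closest to PROT1 (0.88), TOM20-4 (0.87) and KIN1 (0.85).

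The 300 bases before the annotated start of each member were searched on both strands for the G-box CACGTG, the related CACATG, both known as targets of light-signalling factors, and the evening element AAATATCT. None of the 9 windows held a G-box or an evening element, which 7.09% and 5.64% of 27443 such windows hold. CACATG or its reverse complement was found in 2 windows, once for GA3OX1 and in 2 places for GA20OX2, against 13.1% of all windows. They are printed because the light estimates of these genes had opposite signs, with the matches in capitals (chr1:5346343-5346642 and chr5:21056882-21057181, minus strand, TAIR10.1).
GA3OX1: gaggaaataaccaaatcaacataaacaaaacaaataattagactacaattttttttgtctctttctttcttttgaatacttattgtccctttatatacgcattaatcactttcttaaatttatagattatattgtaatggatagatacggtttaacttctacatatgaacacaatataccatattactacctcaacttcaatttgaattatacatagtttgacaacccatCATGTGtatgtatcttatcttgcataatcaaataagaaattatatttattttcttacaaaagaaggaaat
GA20OX2: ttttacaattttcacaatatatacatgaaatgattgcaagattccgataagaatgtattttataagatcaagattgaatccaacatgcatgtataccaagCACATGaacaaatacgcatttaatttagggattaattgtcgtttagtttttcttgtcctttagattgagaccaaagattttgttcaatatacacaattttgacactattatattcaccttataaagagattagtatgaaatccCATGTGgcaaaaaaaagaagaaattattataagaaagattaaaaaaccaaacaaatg
The match starts 70 bases before the start of GA3OX1 and 200 and 57 bases before that of GA20OX2.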

How the data were processed

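The authors deposited 1 table per library with estimated counts, TPM and effective lengths for 33602 transcripts, 1 per locus, made with kallisto 0.42 against TAIR10 per the submitters' processing notes. DESeq2 is named there too. For strand use, the entry is: not given in the sources used here. Effective lengths, also deposited, served the level alternative. Between 12.3% and 13.9% of a library's estimated counts were not whole (tolerance 1e-06). All 108 values of the members were whole, and the others were rounded before testing. The deposited TPM values were used for levels between genes only, with no test.

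Counts were fitted in edgeR 4.0.16 (R 4.3.3) with filterByExpr, TMM and 1 quasi-likelihood model of the 4 groups (8 residual degrees of freedom, biological coefficient of variation 10.4%). This fit was also run on simulated counts, for light in wild type and genotype under normal light alone. Changes were planted there only in genes of at least 1 CPM, so members below that level were not covered. DESeq2 1.42.0, other filters and scalings, a replicate block and leaving out each library were alternatives. No replicate pair agreed within sampling noise (chi-square per gene 6.14 to 29.9), so each library counted once. Counting limits the precision of the low members, as their intervals show. The members and gene lists were chosen with earlier results of these data known. From each list, at most 2 called genes that rose and 2 that fell in a comparison, those with the largest change, were named, and ATRX was given as a check. Marker genes named beside the lists were named after their values were seen. The design foresaw promoter and protein tables, in whose place upstream windows and coding sequences were read from the TAIR10.1 genome and its RefSeq annotation.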

Additional observations from a re-analysis of the deposited data

How the results depend on the processing

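Under size factors of DESeq2, its Wald test, no filter, a filter of 1 CPM in 3 libraries, no organelle or ribosomal RNA loci, and the replicate block, the count of members called stayed at 2 for light in wild type, 1 for light in atrx-2 and 0 for each genotype comparison and the interaction. A fit of only the 6 libraries compared, made for light and for genotype within a level but not for the averaged contrasts or the interaction, gave the same counts. Averaged over genotypes, the light count was 5, or 6 with no filter, 4 with the stricter filter and 4 with DESeq2.

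Leaving out each library in turn gave 1 to 3 members for light in wild type, 0 to 2 in atrx-2 and 2 to 5 for the averaged light contrast. Estimates near 0 changed sign in that series, none of them called. For light in wild type GA3OX2 ran from -0.78 to 0.39 and GA2OX6 from -0.23 to 0.02 (log2). For genotype under normal light GA20OX1 ran from -0.06 to 0.34 and GA3OX2 from -0.17 to 0.18. Under low light GA20OX2 ran from -0.05 to 0.11, GA3OX1 from -0.11 to 0.13 and GA2OX2 from -0.15 to 0.23. In the interaction GA20OX1 ran from -0.06 to 0.37, GA20OX2 from -0.45 to 0.04, GA2OX1 from -0.54 to 0.16 and GA2OX6 from -0.18 to 0.08. The cause was not tested. With 1 library of a group left out, the test assumes that the group varies like the others.

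Same-numbered libraries correlated by -0.147 to 0.174 in their deviations from the group means, 5 of 18 pairs over 0.1. Of 12 libraries, 7 correlated best with a library of their own number. These values do not settle whether the numbers pair the samples. The main fit used no pairing, and a fit with a replicate block was set beside it. With the replicate block, the GA3OX1 light effect was -0.80 in wild type, with -0.49 in the mutant, no member call changed, and the GA3OX1 genotype difference under low light became -0.00.

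Over all genes, edgeR called 14 by genotype under normal light, against 58 with DESeq2, 41 with no filter, 25 without organelle and ribosomal RNA loci and 8 with only the 6 libraries compared. Under low light it called 15, against 57 with DESeq2 and 26 with no filter. Averaged over light it called 64, against 153 and 100, and in the interaction 1, against 3 with DESeq2 and 0 with the block. Leaving out each library gave 5 to 19 under normal light, 7 to 21 under low light, 31 to 84 averaged and 0 to 2 in the interaction.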
